A study of Homo sapiens with 15 samples.

Results

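The genes described here carry the symbols of initiation and elongation factors of cytosolic translation. Most encode such factors, and others encode regulators of them, such as kinases and EIF4E inhibitors, or only share the symbol. All rows of the deposited table whose symbol begins with EIF1 to EIF6, EEF1 or EEF2 were taken, without EIF4A3, which belongs to the exon junction complex, and without pseudogenes. The pattern matched 70 rows. EIF4A3 and 9 pseudogenes, by their RefSeq biotype, were left out, which gave 60 genes of the 12261 in the table. Of these 60 genes, 58 are protein coding, and the remaining rows are the readthrough transcript EEF1E1-BLOC1S5 and the antisense transcript EIF3J-AS1.

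The cells were HEK-293 Trex, a permanent line of human embryonic kidney origin that carries the tetracycline repressor, and all cells received 200 ng/mL doxycycline. The UPF1 lines expressed a CLIP-tagged UPF1, either isoform 1 (UPF1-1) or isoform 2 (UPF1-2), and the control line CLIP-tagged GFP. UPF1 is the RNA helicase of nonsense-mediated decay, and the regulatory loop of the helicase is where its isoforms differ. The 15 libraries comprised 3 each of UPF1-1 IP, UPF1-2 IP, UPF1-1 total RNA, UPF1-2 total RNA and GFP total RNA, where IP is the RNA that came down with the tagged UPF1. Because each of the 3 constructs was carried by a line of its own, line and protein cannot be told apart. The labels do not say whether a line was 1 clone or whether replicates were separate cultures, and p-values thus cover only the spread among these libraries. An IP from GFP cells was not among the samples, and total RNA served as the only reference for the IPs.

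In initiation, EIF2 carries the initiator tRNA to the small ribosomal subunit, EIF3 holds the complex together, and EIF4F, made of the cap-binding protein EIF4E, the scaffold EIF4G and the helicase EIF4A, brings in the mRNA. EIF2B reloads EIF2 with GTP, and stress-activated kinases that phosphorylate EIF2 slow this step. In elongation, EEF1A delivers aminoacyl-tRNA, the EEF1B subunits recharge EEF1A with GTP, and EEF2 moves the ribosome along. Many mRNAs of ribosomal proteins and elongation factors begin with a C followed by a pyrimidine run, the terminal oligopyrimidine (TOP) tract, through which MTOR signalling controls their translation.

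The first bases of the transcripts are shown because the transcripts recovered least in the IPs include known TOP mRNAs. Each line gives 10 bases before and 20 bases from the gene's RefSeq start (GRCh38.p14), 5′ to 3′, and capitals mark an unbroken run of C and T of at least 5 bases that begins with C at the start itself. EEF1B2, EEF1A1, EIF3F and EIF3K are members with low recovery, and EEF2 is a TOP mRNA with recoveries on opposite sides of 0 with the isoforms. EIF4B, EIF3D and EIF2S3 hold the run and had high recovery. The last 3 are members with high or low recovery and no such run. EEF1G, EIF3C, EIF2B4 and EIF4E2 also had low recovery and no such run, and their first bases are not printed.
EEF1B2: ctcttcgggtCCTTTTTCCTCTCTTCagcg
EEF1A1: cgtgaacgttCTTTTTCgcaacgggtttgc
EEF2: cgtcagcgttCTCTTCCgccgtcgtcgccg
EIF3F: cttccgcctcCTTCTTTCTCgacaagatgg
EIF3K: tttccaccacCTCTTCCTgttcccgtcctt
EIF4B: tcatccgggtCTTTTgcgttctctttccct
EIF3D: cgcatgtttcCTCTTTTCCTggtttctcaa
EIF2S3: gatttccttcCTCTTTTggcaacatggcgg
EIF4H: ctcgctcaccctggttcctctcggagcgga
EIF2AK2: aggggaaaacgaaactgagaaccagctctc
EIF1B: cattttgtgcgagaagccgcagcgccgcct
These windows lie at chr2:206159885-206159914, plus strand (EEF1B2), chr6:73521013-73521042, minus strand (EEF1A1), chr19:3985444-3985473, minus strand (EEF2), chr11:7987327-7987356, plus strand (EIF3F), chr19:38619178-38619207, plus strand (EIF3K) and chr12:53006446-53006475, plus strand (EIF4B). The others lie at chr22:36529147-36529176, minus strand (EIF3D), chrX:24054946-24054975, plus strand (EIF2S3), chr7:74174346-74174375, plus strand (EIF4H), chr2:37156961-37156990, minus strand (EIF2AK2) and chr3:40309697-40309726, plus strand (EIF1B). The table's own transcripts were mapped to hg19 per the submitters' processing notes, so these starts are annotation and were not measured here. Of 48 members with an entry, 12 (25%) had the run at an annotated start, against 641 of 8331 tested genes with an entry (7.69%) and 1429 of 35116 promoter entries in all (4.07%).

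UPF1 itself was read first as a check of the labels of UPF1 and GFP lines. Each gene has 1 row, so this check cannot tell the isoforms apart. Its total RNA level was 129 ± 49.8 TPM (SD, n = 3) in the UPF1-1 line and 104 ± 57.9 TPM in the UPF1-2 line, against 5.20 ± 2.93 TPM in the GFP line. Values were TPM, a length-adjusted share of the transcripts of a library, from which the number of reads behind a value cannot be read, so depth is unknown. Of 8 genes listed as HEK-293 markers 6 had a row and 5 of these averaged at least 1 TPM in total RNA, with VIM highest and EYA1 under 1 TPM. Rows were found for 0 of 15 markers of blood, endothelium, fibroblasts and liver. Libraries with number 3 stood apart from numbers 1 and 2 in all groups: after group means were removed, numbers 1 and 2 of different groups correlated across genes at r of 0.64 to 0.80 in total RNA, and number 3 with either at -0.89 to -0.72.

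**Figure D1:**
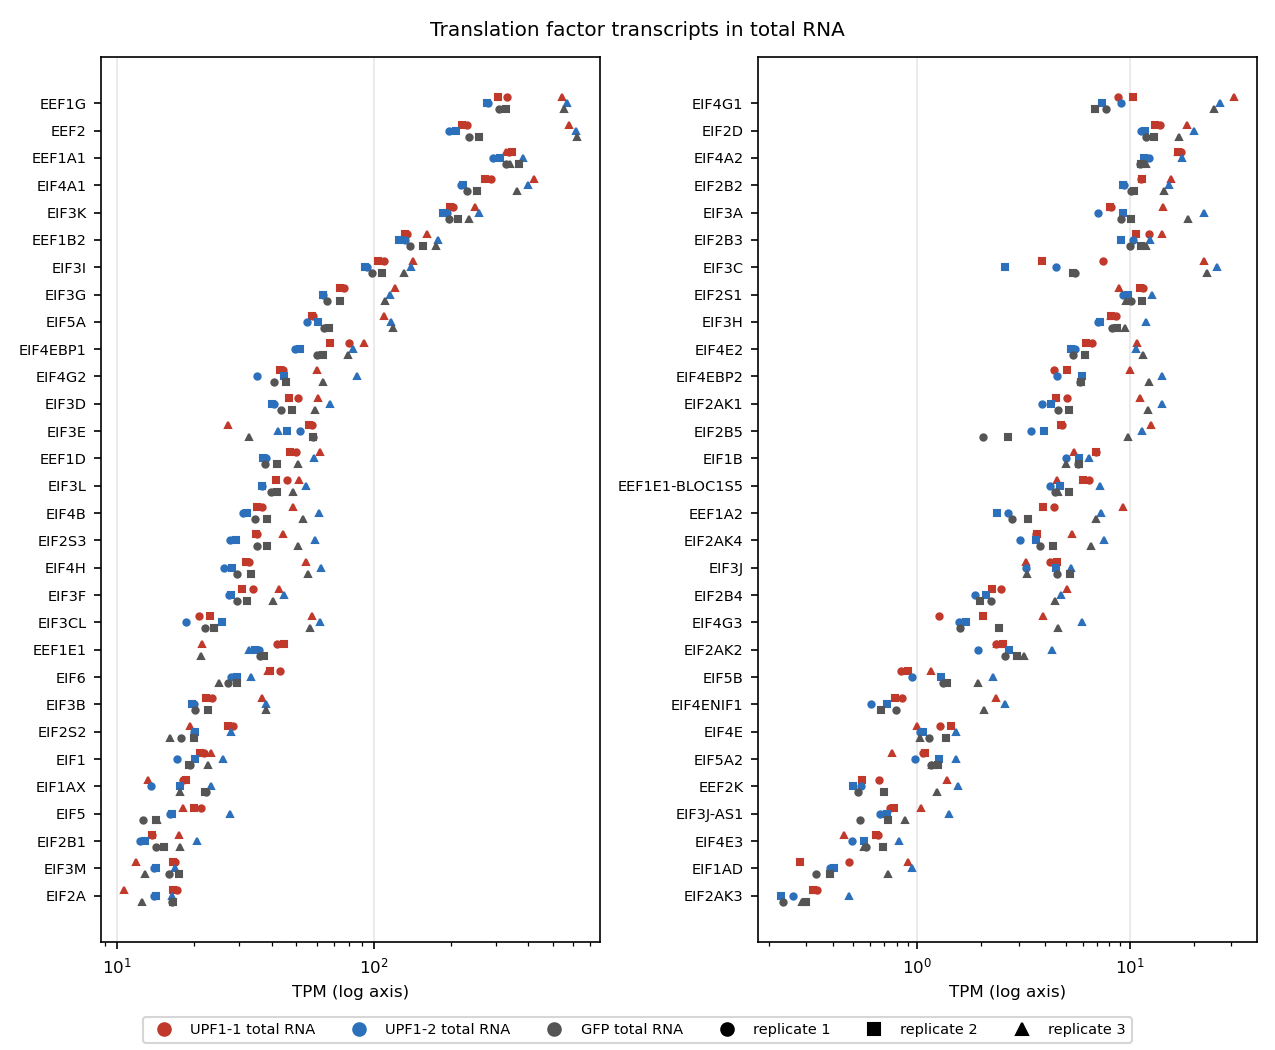
Level of each of the 60 members in total RNA, in TPM on a log axis, ordered by the mean of 9 libraries. Colours give the line and symbols the replicate number. The members run from 388 TPM (EEF1G) to under 1 TPM, and for many members the triangles of replicate 3 lie to the right of the other replicates in all 3 lines.

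The members covered a wide range of levels in total RNA, as the plot of TPM by library shows. The elongation factor subunit EEF1G averaged 388 TPM over the 9 total RNA libraries (range 277 to 567), EEF2 352 TPM (196 to 622), EEF1A1 337 TPM (292 to 382) and the helicase EIF4A1 297 TPM (219 to 421). EIF3K at 215 TPM, EEF1B2 at 148 TPM and EIF3I at 113 TPM completed the 7 members at 100 TPM or more. The ranges of the first 4 as listed overlap, so these values do not resolve their order. At the other end 15 members averaged under 5 TPM and 5 under 1 TPM, among them the cap-binding relative EIF4E3 and EIF2AK3, the kinase that responds to stress in the endoplasmic reticulum. The 60 members together held 1.87% ± 0.18 (SD, n = 3) of the listed TPM of the UPF1-1 line, 1.91% ± 0.17 of the UPF1-2 line and 1.94% ± 0.17 of the GFP line in total RNA. In the IPs they held 2.00% ± 0.22 with UPF1-1 and 2.33% ± 0.23 with UPF1-2. EEF1A1 is uncertain as a level, since its near-identical processed copy EEF1A1P5 was listed at 3.39 times the TPM of EEF1A1 over the total RNA libraries. With its listed copies added, EEF1A1 averaged 1501 TPM (1252 to 1761), above the ranges of EEF1G, EEF2 and EIF4A1. The shares above leave EEF1A1P5 out. It averaged 1171 TPM in UPF1-1 total RNA and 2323 TPM in the UPF1-1 IP, against 2976 and 11028 TPM for all members. The shares, and their difference between IP and total RNA, thus depend on how such reads were split. EIF1AX, EIF2S2, EIF3F and EIF3C also have listed near-identical copies, in the case of EIF3C the gene EIF3CL.

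The first comparison asked how factor transcripts differed between cells with UPF1-1 and cells with GFP. In total RNA 6 members rose and 7 fell in the UPF1-1 line, the largest by 0.62 on the log2 scale. The risers were EIF2B5, EIF6, EIF4A2, EIF5, EIF2S2 and EEF1A2, and the fallers EIF5B, EIF4EBP2, EIF3A, EIF2AK2, EIF5A2, EIF2AK4 and EEF2. They come from nearly every step of the pathway, and no role group had more than 2 members moving in the same direction. Differences are on the log2 scale of TPM plus 0.5 with library medians set equal and the replicate number as a block, tested by limma with Benjamini-Hochberg adjustment over all 9325 genes tested. In such bulk RNA, a change in some of the cells and a smaller change in all of them cannot be told apart.

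Of the 56 members with enough signal to be tested, 13 passed the threshold of 0.05 (23.2%), against 16.2% of all genes tested. By direction 10.7% of members were higher, against 8.38% of all genes, and 12.5% lower, against 7.79%. The median difference was -0.06 over the members and -0.01 over all genes. EIF1AD, EIF2AK3, EIF4E3 and EIF3J-AS1 did not reach 1 TPM in 3 total RNA libraries and were not tested. On the log2 scale with equal medians, before the block is taken out, the UPF1-1 and GFP libraries did not overlap for 3 of these 13. They were EIF5B, EIF4A2 and EIF2AK4, and a share over all genes is not given. Statements on overlap in the next paragraphs are on the TPM scale. Without the replicate block 0 members passed in either direction, and 3 had an unadjusted p under 0.05. Among all genes 11 were then higher and 5 lower. The sleuth q of this comparison in the authors' deposited table was under 0.05 for 0 of 60 members and 45 genes in all, and the lowest q of a member was 0.225, for EIF5B. Leaving out replicate 1, 2 or 3 gave 3 higher and 2 lower, 2 higher and 1 lower, and 5 higher and 8 lower. Among all genes the counts were 316 and 273, 135 and 71, and 599 and 542. EIF4A2, EIF5B and EIF6 passed each time. With upper quartiles in place of medians set equal the split was 6 higher and 13 lower. All genes moved the same way, to 638 higher and 976 lower, against 781 and 726 with medians set equal.

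Among the factors of start codon selection and subunit joining, EIF5B, the GTPase that joins the large ribosomal subunit, was at 0.839, 0.906 and 1.16 TPM in the UPF1-1 line, 0.949, 1.30 and 2.26 TPM in the UPF1-2 line and 1.32, 1.38 and 1.92 TPM in the GFP line. All 3 UPF1-1 libraries lay below all 3 GFP libraries, and the difference was -0.56 ± 0.07 (SE; limma adjusted p = 0.002). EIF5, which triggers GTP hydrolysis by EIF2 at the start codon, was at 21.1, 19.9 and 18.0 TPM in the UPF1-1 line, 16.2, 16.4 and 27.6 TPM in the UPF1-2 line and 12.6, 14.2 and 14.2 TPM in the GFP line. It rose by 0.42 ± 0.09 (adjusted p = 0.02), and every UPF1-1 library was above every GFP library. EIF2S2, the beta subunit of EIF2, was at 28.3, 27.1 and 19.3 TPM in the UPF1-1 line, 19.99, 20.1 and 27.7 TPM in the UPF1-2 line and 17.7, 19.97 and 16.0 TPM in the GFP line. Its values overlapped between the lines, and within replicate numbers it was higher by 0.48, 0.39 and 0.21 (mean 0.36 ± 0.10, adjusted p = 0.041; 0.34 with its listed copies added). EIF2S1, the alpha subunit that the stress kinases phosphorylate, showed 11.5, 11.1 and 8.84 TPM in the UPF1-1 line, 9.27, 9.73 and 12.7 TPM in the UPF1-2 line and 10.1, 11.4 and 9.57 TPM in the GFP line, with overlapping groups and a difference of -0.08 (adjusted p = 0.48). EIF1AX, which acts in scanning, had -0.40 ± 0.12 and did not pass (adjusted p = 0.055). The remaining tested members of this group, EIF1, EIF1B, EIF2A, EIF2D and EIF2S3, lay between -0.20 and 0.12.

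Of the exchange factor EIF2B, the catalytic subunit EIF2B5 passed and the other 4 subunits did not. EIF2B5 was at 4.79, 4.76 and 12.5 TPM in the UPF1-1 line, 3.41, 3.93 and 11.4 TPM in the UPF1-2 line and 2.04, 2.66 and 9.75 TPM in the GFP line. The raw levels overlapped, replicate 3 was higher in every line, and within the replicate numbers EIF2B5 was higher by 0.88, 0.69 and 0.30. The mean was 0.62 ± 0.13 (adjusted p = 0.014), the largest rise among the members. EIF2B1 to EIF2B4 lay between -0.16 and 0.06. Of the kinases, EIF2AK2 (PKR), which senses double-stranded RNA, was at 2.35, 2.52 and 2.37 TPM in the UPF1-1 line, 1.92, 2.71 and 4.30 TPM in the UPF1-2 line and 2.57, 2.95 and 3.17 TPM in the GFP line. Its UPF1-1 libraries were all below the GFP libraries in TPM and overlapped them with medians set equal, and the difference was -0.31 ± 0.09 (adjusted p = 0.048). EIF2AK4 (GCN2), which senses uncharged tRNA, fell by 0.27 on the log2 scale (adjusted p = 0.017), while EIF2AK1, the heme-regulated kinase, had -0.15 (adjusted p = 0.12).

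Of the 14 EIF3 genes, which count EIF3C and its near-identical EIF3CL separately, EIF3A alone passed. EIF3A, a large core subunit, was at 8.11, 8.02 and 14.3 TPM in the UPF1-1 line, 7.04, 9.25 and 22.4 TPM in the UPF1-2 line and 9.03, 10.2 and 18.7 TPM in the GFP line. The groups overlapped in TPM, and the within-number differences of -0.33, -0.37 and -0.42 were all below 0 (mean -0.37 ± 0.07, adjusted p = 0.008). The other 13 genes lay between -0.20 (EIF3E) and 0.03 (EIF3G). In the EIF4F group EIF4A2, the less abundant of the paired helicases, was at 17.4, 16.9 and 16.8 TPM in the UPF1-1 line, 12.3, 11.6 and 17.5 TPM in the UPF1-2 line and 11.2, 11.2 and 11.9 TPM in the GFP line. Every UPF1-1 library was above every GFP library, a rise of 0.46 ± 0.06 (adjusted p = 0.0021). EIF4A1 was at 287, 272 and 421 TPM in the UPF1-1 line, 219, 223 and 401 TPM in the UPF1-2 line and 231, 253 and 361 TPM in the GFP line, with overlap and a difference of 0.12 (adjusted p = 0.19). EIF4G1 was at 8.76, 10.4 and 30.9 TPM in the UPF1-1 line, 9.05, 7.42 and 26.6 TPM in the UPF1-2 line and 7.75, 6.86 and 24.8 TPM in the GFP line. Replicate 3 was well above the others in each line, and the difference of 0.26 ± 0.14 did not pass (adjusted p = 0.22). EIF4E, the cap-binding subunit, was at 1.28, 1.43 and 0.994 TPM in the UPF1-1 line, 1.03, 1.06 and 1.51 TPM in the UPF1-2 line and 1.14, 1.36 and 1.03 TPM in the GFP line, overlapping throughout (-0.04, adjusted p = 0.77). EIF4EBP2, which binds EIF4E and blocks its contact with EIF4G, was at 4.37, 5.03 and 10.02 TPM in the UPF1-1 line, 4.56, 5.96 and 14.1 TPM in the UPF1-2 line and 5.79, 5.87 and 12.3 TPM in the GFP line. It fell by 0.38 on the log2 scale (SE 0.07, adjusted p = 0.011), although TPM overlapped, and within-number differences were -0.55, -0.25 and -0.33. The related EIF4EBP1 had 0.15 ± 0.05 and did not pass (adjusted p = 0.092), and the EIF4E transporter EIF4ENIF1 had 0.02.

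EIF6, which keeps free large ribosomal subunits from joining small ones, rose. It was at 43.3, 39.4 and 38.8 TPM in the UPF1-1 line, 27.9, 29.4 and 33.3 TPM in the UPF1-2 line and 27.1, 29.4 and 24.9 TPM in the GFP line. The UPF1-1 values lay above all others, by 0.48 ± 0.06 against GFP (adjusted p = 0.0015). EIF5A2, the rarer form of the hypusine-containing factor EIF5A, was at 1.07, 1.09 and 0.762 TPM in the UPF1-1 line, 0.974, 1.26 and 1.51 TPM in the UPF1-2 line and 1.16, 1.26 and 1.17 TPM in the GFP line. It fell by 0.30 on the log2 scale (adjusted p = 0.034). Its UPF1-1 and GFP libraries did not overlap in TPM and overlapped with medians set equal. The call did not pass without replicate 1, 2 or 3 (adjusted p = 0.12, 0.14 and 0.11). EIF5A was at 57.9, 57.7 and 110.0 TPM in the UPF1-1 line, 55.0, 60.6 and 116 TPM in the UPF1-2 line and 64.0, 66.9 and 119 TPM in the GFP line, which overlapped (-0.24 ± 0.07, adjusted p = 0.057). Among elongation factors EEF1A2, normally high in muscle and neurons, was at 4.39, 3.88 and 9.23 TPM in the UPF1-1 line, 2.66, 2.36 and 7.28 TPM in the UPF1-2 line and 2.80, 3.33 and 6.91 TPM in the GFP line. The raw groups overlapped, and it rose by 0.30 ± 0.08 (adjusted p = 0.037). EEF1A1 was at 337, 346 and 328 TPM in the UPF1-1 line, 292, 311 and 382 TPM in the UPF1-2 line and 329, 368 and 339 TPM in the GFP line and overlapped (-0.12 ± 0.05, adjusted p = 0.16). EEF2 was at 230.4, 221 and 579 TPM in the UPF1-1 line, 196, 209 and 617 TPM in the UPF1-2 line and 234, 258 and 622 TPM in the GFP line. It overlapped in TPM and was lower within each replicate number, with differences of -0.20, -0.27 and -0.15, and passed near the threshold (-0.21 ± 0.06, adjusted p = 0.048). The kinase EEF2K had -0.06, and EEF1B2, EEF1D, EEF1E1 and EEF1G lay between -0.21 and 0.20 without passing.

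**Figure D2:**
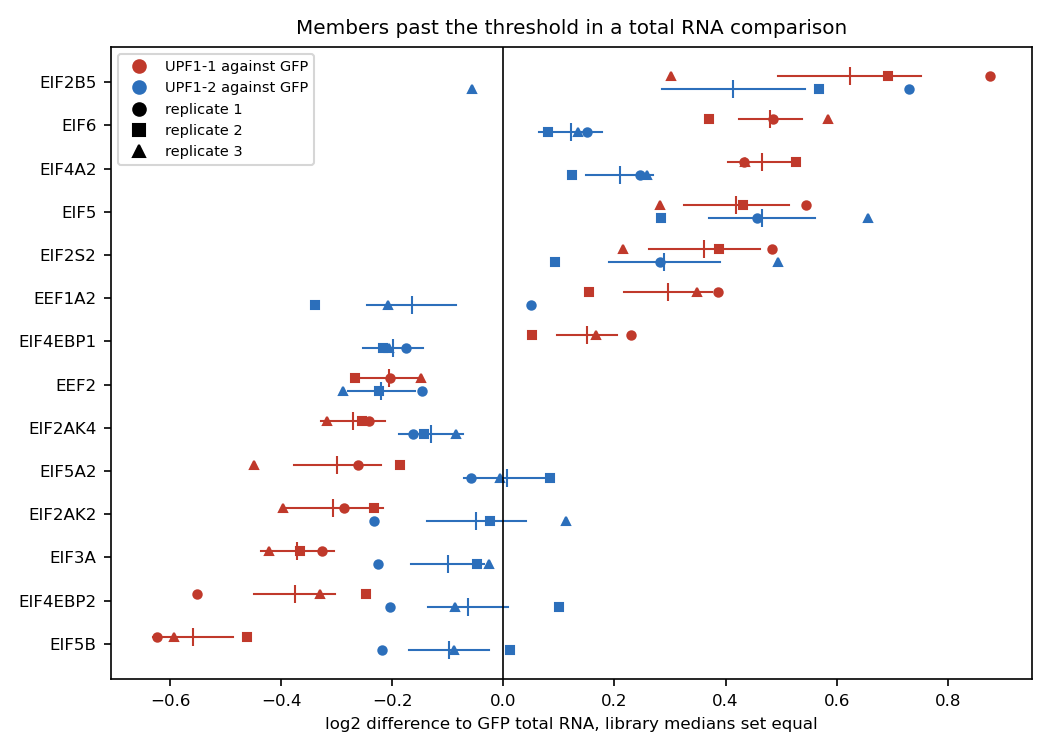
log2 difference to GFP total RNA with library medians set equal, for the 14 members past the threshold in UPF1-1 against GFP or UPF1-1 against UPF1-2. Symbols are differences within a replicate number, the vertical tick is the fitted mean and the line its SE. EIF5B lies between -0.62 and -0.46 with UPF1-1 and between -0.22 and 0.01 with UPF1-2, while EIF5 is above 0 in every replicate of both lines.

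The second comparison put the UPF1-2 line against the same GFP libraries. Here 0 of 56 members passed in limma, against 0.375% of all genes, and 9 had an unadjusted p under 0.05. By the sleuth q of the authors' deposited table, 0 of 60 members and 4 genes in all were under 0.05. The median was -0.07 over the members and -0.02 over all genes. The largest positive differences were 0.47 ± 0.09 for EIF5 (adjusted p = 0.11) and 0.41 ± 0.13 for EIF2B5 (adjusted p = 0.26). EIF2B5 was higher within replicates 1 and 2 only, by 0.73, 0.57 and -0.06, and without replicate 3 it passed, at 0.67 (adjusted p = 0.035). For EIF5B the UPF1-2 difference was -0.10 ± 0.07, for EIF6 0.12 ± 0.06, for EIF4A2 0.21 ± 0.06 and for EIF3A -0.10 ± 0.07. The values against GFP in both lines share the GFP libraries, so the direct comparison of the isoform lines carries the test.

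In that direct comparison UPF1-1 total RNA had 4 members above and 4 below UPF1-2 total RNA (14.3% of 56), against 9.51% of all genes tested, 5.49% higher and 4.02% lower. EEF1A2 differed by 0.46 ± 0.08 (adjusted p = 0.014), EIF6 by 0.36 ± 0.06 (adjusted p = 0.011) and EIF4A2 by 0.26 ± 0.06 (adjusted p = 0.035). EIF4EBP1 was at 80.2, 67.8 and 91.7 TPM in the UPF1-1 line, 49.3, 51.6 and 83.1 TPM in the UPF1-2 line and 60.2, 63.5 and 79.1 TPM in the GFP line, and differed between the isoform lines by 0.35 ± 0.05 (adjusted p = 0.01). These 4 were the higher ones, an elongation factor, an antiassociation factor, a helicase and an EIF4E inhibitor. EIF5B was lower, with differences of -0.41, -0.47 and -0.50 within the replicate numbers (mean -0.46 ± 0.07, adjusted p = 0.01). EIF4EBP2 at -0.31 ± 0.07 (adjusted p = 0.033), EIF5A2 at -0.31 ± 0.08 (adjusted p = 0.044) and EIF3A at -0.27 ± 0.07 (adjusted p = 0.038) were the other lower members. Both EIF4E inhibitors thus passed here in opposite directions. Without the replicate block 0 members and 0 genes in all passed, and 2 members had an unadjusted p under 0.05. The authors' deposited table held 0 members and 17 genes in all with a sleuth q under 0.05. Leaving out replicate 1 gave 3 higher and 2 lower, leaving out replicate 2 gave 0 and 0, and leaving out replicate 3 gave 2 and 1. Among all genes these counts were 250 and 201, 13 and 4, and 144 and 138.

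Recovery, the IP level over the total RNA level of the same line, asked which factor transcripts co-purified with each UPF1 isoform. Factor transcripts were spread from the best to the least recovered genes. The members at 0.66 or higher with UPF1-1 were the kinase EIF2AK2, EIF1AX, EIF4H, EIF5, the readthrough row EEF1E1-BLOC1S5, EIF2S3, EIF5A2, EIF4G3, EIF2S1 and EIF4B. The members at -1.69 or lower with UPF1-1 were the EEF1 subunits EEF1B2, EEF1D, EEF1G and EEF1A2, the EIF3 subunits EIF3C, EIF3K, EIF3F and EIF3G, EIF1B, EIF2B4 and EIF4E2. The library medians of log2 TPM plus 0.5 were themselves higher in the IPs than in total RNA, on average by 2.56 with UPF1-1 and 2.53 with UPF1-2. Recovery is the log2 gain less this median shift, so a negative recovery means a gain in TPM smaller than the median shift. Without equal medians, 35 of the 36 members below the median shift with UPF1-1 and 32 of 32 with UPF1-2 had a log2 ratio above 0. That does not set them apart, since 11464 of 11969 genes with UPF1-1 and 11485 with UPF1-2 were then called higher. The listed genes summed on average to 157829 TPM in UPF1-1 total RNA and 541742 TPM in its IP. For UPF1-2 the sums were 145938 and 545809 TPM.

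With UPF1-1, 15 of 60 members were recovered above the median shift and 36 below (85% called), against 74.7% of 11969 genes, 30.8% higher and 43.9% lower. With UPF1-2 the counts were 22 and 32 (90%), against 75.7%, 31.5% higher and 44.2% lower. The median recovery of the members was -0.47 with UPF1-1 and -0.39 with UPF1-2, and that of all genes -0.16 and -0.15. Above the median shift with both isoforms were 14 members, and 32 below with both. The share of all genes called alike with both isoforms is not given, so these counts only describe the members. EEF2 was the member called in opposite directions, and its call with UPF1-2 was lost in several other settings given below. Without the block, medians set equal, the UPF1-1 counts were 10 and 25, and the UPF1-2 counts 12 and 21. Among all genes they were 2368 and 3832, and 2526 and 3965. Without replicate 3 the member counts were 14 and 37, and 22 and 33. Those of all genes were 3781 and 5095, and 3840 and 5332. The pseudocount of 0.5 holds down the recovery of members near or under 1 TPM in total RNA. Abundant members also depend on it, since library medians are taken after it is added. With a pseudocount of 1, EIF4A1 with UPF1-2 went from -0.39 to -0.16 and did not pass (limma adjusted p = 0.099). With a pseudocount of 0.1, EIF2AK3 moved to -0.57 with UPF1-1 and -1.11 with UPF1-2, EIF1AD to -0.60 and -0.39, and EIF4E3 to -0.04 and -0.44.

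**Figure D3:**
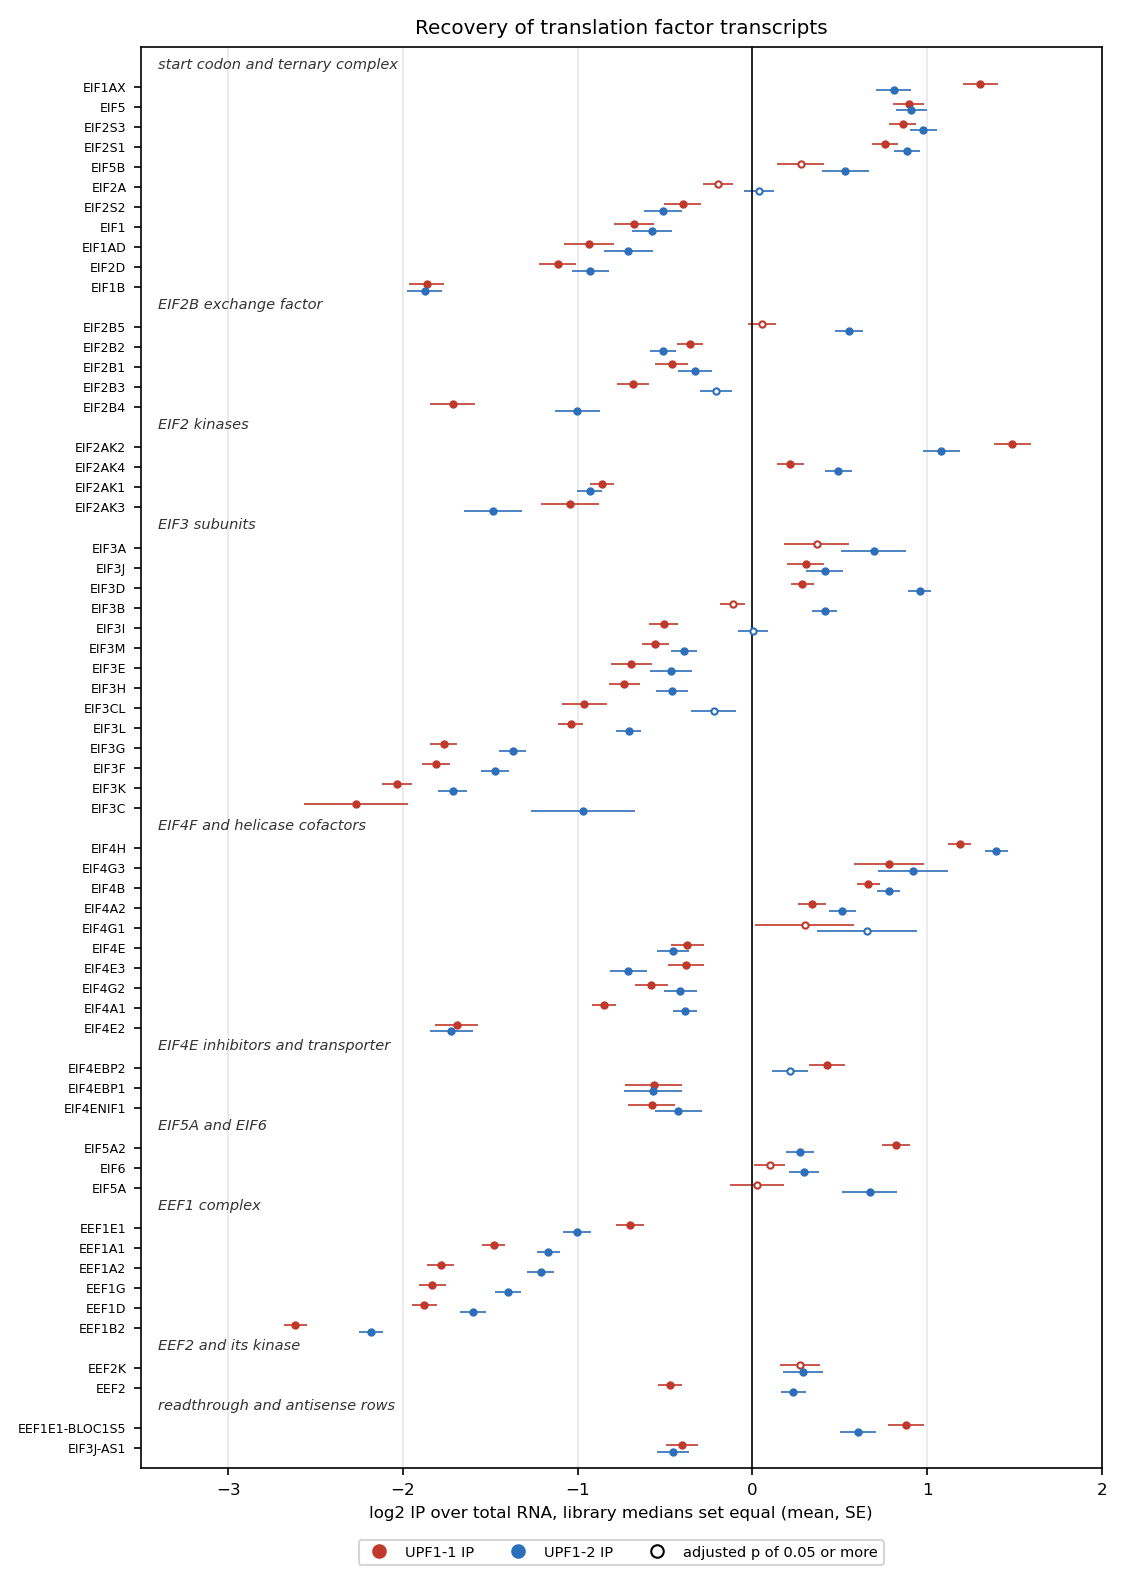
Recovery of the 60 members with UPF1-1 and UPF1-2, as log2 IP over total RNA with library medians set equal (mean and SE over 3 libraries per group), grouped by role. Open symbols did not pass the threshold. All 6 EEF1 rows lie left of 0 with both isoforms, from -2.62 to -0.70 with UPF1-1, while the EIF4F group runs from -1.69 to 1.19.

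In the EEF1 group 6 of 6 members were below the median shift with each isoform (medians -1.81 and -1.30), against 43.9% and 44.2% of all genes. The group was formed by symbol and includes EEF1E1, which is not a subunit of the EEF1 complex. EEF1B2, the beta subunit that exchanges GDP on EEF1A, was at 125, 115 and 179 TPM in the UPF1-1 IP against 135, 133 and 162 TPM in its total RNA, and at 179.9, 161 and 210.2 TPM in the UPF1-2 IP against 132, 126 and 178 TPM in its total RNA. Its TPM overlapped between IP and total RNA, and its recovery was -2.62 ± 0.07 with UPF1-1 (adjusted p = 7.2e-08) and -2.18 ± 0.07 with UPF1-2 (adjusted p = 1.4e-07). With UPF1-1, 2.11% of all genes were recovered less. EEF1D, the delta subunit, was at 70.9, 73.6 and 117 TPM in the UPF1-1 IP against 50.001, 47.4 and 61.8 TPM in its total RNA (-1.88 ± 0.07), and EEF1G, the gamma subunit, had -1.83 ± 0.08. With UPF1-2 these subunits had -1.60 ± 0.07 and -1.40 ± 0.08. EEF1A1 was at 656, 650.5 and 847 TPM in the UPF1-1 IP against 337, 346 and 328 TPM in its total RNA, with ratios within the replicate numbers of -1.49, -1.48 and -1.48. In the UPF1-2 IP it was at 857, 736 and 935 TPM against 292, 311 and 382 TPM in its total RNA, with ratios of -1.10, -1.24 and -1.16. Adding the listed copies gave -1.57 and -1.20. EEF1A2 had -1.78 ± 0.08 and -1.21 ± 0.08, and EEF1E1, which sits in the tRNA synthetase complex, -0.70 ± 0.08 and -1.002 ± 0.08. Over all 15 libraries the genes whose TPM correlated most with EEF1A1 were TXN, NDUFS5, RPL7, RPL26 and SDHB (Pearson r 0.996 to 0.998 over 9320 genes compared), a description that includes the common difference between IP and total RNA.

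EEF2, the translocase, differed from the EEF1 genes. It was at 937, 845 and 2879 TPM in the UPF1-1 IP against 230.4, 221 and 579 TPM in its total RNA, with within-number recoveries of -0.43, -0.46 and -0.53. In the UPF1-2 line it was at 1468, 1309.6 and 4131 TPM in the IP against 196, 209 and 617 TPM in total RNA, with recoveries of 0.26, 0.16 and 0.29. The means were -0.47 ± 0.07 (adjusted p = 0.00032) and 0.24 ± 0.07 (adjusted p = 0.014), below the median shift with UPF1-1 and above it with UPF1-2. The UPF1-2 value was 0.01 and did not pass with a pseudocount of 0.1. It also did not pass with upper quartiles set equal (0.12, adjusted p = 0.12), without replicate 1 (0.22, adjusted p = 0.20) or without replicate 2 (0.27, adjusted p = 0.053). EEF2K, the kinase that inhibits EEF2, had 0.27 ± 0.11 (adjusted p = 0.057) and 0.29 ± 0.11 (adjusted p = 0.045).

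Among the initiation factors EIF2AK2 had the highest recovery with UPF1-1. It was at 41.9, 37.3 and 69.7 TPM in the UPF1-1 IP against 2.35, 2.52 and 2.37 TPM in its total RNA (1.49 ± 0.11, adjusted p = 4.2e-06). In the UPF1-2 IP it was at 34.3, 33.8 and 56.6 TPM against 1.92, 2.71 and 4.30 TPM in its total RNA (1.08 ± 0.11, adjusted p = 2.4e-05). The kinases split evenly: EIF2AK4 was above the median shift as well, at 0.22 and 0.49, and EIF2AK1 and EIF2AK3 were below it, at -0.86 and -0.93 for EIF2AK1 and at -1.04 and -1.48 for EIF2AK3. The first value is that with UPF1-1 throughout.

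The EIF2 subunits and the start codon factors were also mixed. EIF1AX was at 247, 227 and 267 TPM in the UPF1-1 IP against 18.1, 18.5 and 13.2 TPM in its total RNA (1.30 ± 0.10, adjusted p = 6.4e-06), and had 0.81 ± 0.10 with UPF1-2 (0.95 and 0.53 with its copies added). EIF5 was at 203, 179.9 and 292 TPM in the UPF1-1 IP against 21.1, 19.9 and 18.0 TPM in its total RNA, and recovery was nearly equal with the isoforms at 0.89 ± 0.09 and 0.91 ± 0.09. EIF2S1 was at 102, 99.4 and 125 TPM in the UPF1-1 IP against 11.5, 11.1 and 8.84 TPM in its total RNA, and at 114, 106 and 131 TPM in the UPF1-2 IP against 9.27, 9.73 and 12.7 TPM in its total RNA. EIF2S1 at 0.76 ± 0.07 and 0.89 ± 0.07 and EIF2S3, the gamma subunit, at 0.86 ± 0.08 and 0.98 ± 0.08 were above the median shift, and EIF2S2 was below it at -0.40 ± 0.11 and -0.51 ± 0.11. Subunits of one complex were therefore recovered on both sides of the median shift. EIF1B, a close relative of EIF1, was at 10.02, 9.35 and 13.0 TPM in the UPF1-1 IP against 6.95, 6.91 and 5.45 TPM in its total RNA (-1.87 ± 0.10) and had -1.88 ± 0.10 with UPF1-2. EIF1 had -0.68 and -0.58, EIF1AD -0.93 and -0.71, and EIF2D, an initiator tRNA-binding factor, -1.12 and -0.93. EIF5B passed with UPF1-2 at 0.53 ± 0.13 (adjusted p = 0.0063) and not with UPF1-1 at 0.28 ± 0.13 (adjusted p = 0.092), and the difference between these recoveries did not pass (adjusted p = 0.42). EIF2A passed with neither isoform. In EIF2B, EIF2B4 was lowest at -1.72 ± 0.13 and -1.003 ± 0.13, and EIF2B1 and EIF2B2 were below the median shift with both isoforms, between -0.51 and -0.33. EIF2B3 passed with UPF1-1 (-0.68) and not with UPF1-2 (-0.21), and EIF2B5 with UPF1-2 (0.55 ± 0.08) and not with UPF1-1 (0.05 ± 0.08). Only a test of the difference itself separates the isoforms, and it is given for the members past its threshold in the last comparison.

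The 14 EIF3 genes count EIF3C and its near-identical neighbour EIF3CL separately. With UPF1-1, 2 were above and 10 below the median shift, against 30.8% and 43.9% of all genes. With UPF1-2, 4 were above and 8 below, against 31.5% and 44.2%. The medians were -0.71 and -0.42. EIF3K, a small peripheral subunit, was at 276, 285 and 379.8 TPM in the UPF1-1 IP against 204, 198 and 248 TPM in its total RNA (-2.03 ± 0.09), and had -1.72 ± 0.09 with UPF1-2. EIF3F had -1.81 ± 0.08 and -1.47 ± 0.08, and EIF3G -1.77 ± 0.08 and -1.37 ± 0.08. EIF3C was at 5.79, 2.98 and 65.0 TPM in the UPF1-1 IP against 7.43, 3.85 and 22.2 TPM in its total RNA, a mean recovery of -2.27 ± 0.30, and had -0.97 ± 0.30 with UPF1-2. Its replicate 3 was far above the others, and with the TPM of its near-identical neighbour EIF3CL added its recovery was -1.14 and -0.30. At the upper end EIF3D, which can bind caps, was at 332, 314 and 527 TPM in the UPF1-1 IP against 50.5, 46.8 and 60.8 TPM in its total RNA, and at 514, 429 and 739 TPM in the UPF1-2 IP against 41.1, 40.3 and 67.9 TPM in its total RNA. It had 0.29 ± 0.06 with UPF1-1, which did not pass at a pseudocount of 0.1, and 0.96 ± 0.06 with UPF1-2. EIF3A had 0.37 ± 0.19 (adjusted p = 0.1) and 0.69 ± 0.19 (adjusted p = 0.0086), and the loosely bound subunit EIF3J 0.31 and 0.41. EIF3B had -0.11 and 0.41, EIF3I -0.51 and 0.00, and EIF3CL -0.96 and -0.22. EIF3E, EIF3H, EIF3L and EIF3M were below the median shift with both isoforms, between -1.04 and -0.39.

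In the EIF4F group of 10 members, 4 were above and 5 below the median shift with each isoform. Of all genes 30.8% were above and 43.9% below with UPF1-1, and 31.5% and 44.2% with UPF1-2. EIF4H, which stimulates the EIF4A helicase, was at 395, 389 and 924 TPM in the UPF1-1 IP against 32.6, 31.8 and 54.5 TPM in its total RNA (1.19 ± 0.06). In the UPF1-2 IP it was at 429, 436 and 902 TPM against 26.2, 28.1 and 62.6 TPM in its total RNA (1.40 ± 0.06, the highest recovery of a member with UPF1-2). EIF4B, which acts like EIF4H, had 0.66 ± 0.06 and 0.78 ± 0.06, EIF4A2 0.34 ± 0.08 and 0.52 ± 0.08, and the scaffold EIF4G3 0.78 ± 0.20 and 0.92 ± 0.20. EIF4A1 lay on the other side: it was at 859, 846 and 1589.5 TPM in the UPF1-1 IP against 287, 272 and 421 TPM in its total RNA (-0.85 ± 0.07), and at 1074, 942 and 1675 TPM in the UPF1-2 IP against 219, 223 and 401 TPM in its total RNA (-0.39 ± 0.07). The helicases EIF4A1 and EIF4A2 were thus called in opposite directions with both isoforms. EIF4G1 was at 59.3, 58.0 and 346 TPM in the UPF1-1 IP against 8.76, 10.4 and 30.9 TPM in its total RNA, and at 49.9, 66.2 and 456 TPM in the UPF1-2 IP against 9.05, 7.42 and 26.6 TPM in its total RNA. The within-number recoveries of 0.24, 0.03 and 0.62 and -0.25, 0.59 and 1.62 were highest in replicate 3, and neither mean passed (adjusted p = 0.36 and 0.065). EIF4E was at 6.66, 6.67 and 8.96 TPM in the UPF1-1 IP against 1.28, 1.43 and 0.994 TPM in its total RNA (-0.37 ± 0.09) and had -0.45 ± 0.09 with UPF1-2. Its relative EIF4E2, a translational repressor, was lower at -1.69 ± 0.12 and -1.72 ± 0.12, and EIF4G2, a scaffold without the EIF4E site, had -0.58 and -0.41. Of the EIF4E inhibitors EIF4EBP1 was below the median shift with both isoforms (-0.57 and -0.57), as was EIF4ENIF1 (-0.58 and -0.42), while EIF4EBP2 was above it with UPF1-1 (0.43 ± 0.10; 0.21 with UPF1-2, which did not pass). EIF5A2 had 0.82 ± 0.08 and 0.27 ± 0.08, and EIF6 0.10 and 0.30. EIF5A was at 370.1, 386 and 568 TPM in the UPF1-1 IP against 57.9, 57.7 and 110.0 TPM in its total RNA (0.03 ± 0.16), and at 610.1, 599 and 839.9 TPM in the UPF1-2 IP against 55.0, 60.6 and 116 TPM in its total RNA (0.67 ± 0.16). The readthrough row EEF1E1-BLOC1S5 had 0.88 ± 0.10 and 0.61 ± 0.10, and the antisense row EIF3J-AS1 -0.40 and -0.45, and reads of such rows may not be separable from those of the genes they overlap.

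The transcripts whose first bases were shown in the opening paragraphs can be set against these values. Of 9 factors listed as TOP mRNAs from general knowledge, 8 were below the median shift with UPF1-1 (median -1.48) and 7 with UPF1-2 (median -1.17). Of all genes 43.9% and 44.2% were below it. EIF4B was above it with both isoforms. The 12 members with the pyrimidine run had median recoveries of -0.51 with UPF1-1 and -0.18 with UPF1-2, against -0.24 and 0.11 for the 36 members without it. Over all tested genes with an entry the medians were -0.25 and -0.22 with the run, against -0.09 and -0.07 without. EIF2S3, EIF3D, EIF4A2 and EIF4B held the run and were above the median shift with both isoforms. EIF1B, EEF1G, EIF3C, EIF2B4 and EIF4E2 lacked it at the annotated start and were among the members recovered least with UPF1-1. Recovery was weakly related to the level in GFP total RNA across members (Spearman's rho -0.24 with UPF1-1 and -0.09 with UPF1-2, n = 60 genes of the same libraries) and across all genes (0.05 and 0.12), given as a description.

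The last comparison tested whether recovery differed between the isoforms. Of 60 members 11 were recovered less and 1 more with UPF1-1 than with UPF1-2 (20%), against 10.7% of all genes, 6.27% lower and 4.43% higher. The median difference was -0.19 over the members and -0.04 over all genes. The lower members were 4 EIF3 genes (EIF3B, EIF3CL, EIF3D and EIF3I), 3 EEF1 subunits (EEF1A2, EEF1B2 and EEF1G), EIF2B4, EIF2B5, EEF2 and EIF4A1. The higher one was EIF5A2. Recoveries across members were otherwise close between the isoforms, with a Spearman's rho of 0.92 over the 60 genes, as a description.

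EEF2 and EIF3D had the smallest adjusted p. For EEF2 the recoveries within replicate numbers were -0.43, -0.46 and -0.53 with UPF1-1 and 0.26, 0.16 and 0.29 with UPF1-2, a difference of -0.71 ± 0.10 (limma adjusted p = 0.015). For EIF3D they were 0.26, 0.34 and 0.26 with UPF1-1 and 0.98, 0.91 and 0.98 with UPF1-2, a difference of -0.67 ± 0.09 (adjusted p = 0.015). EEF1A2 at -0.57 ± 0.11 and EIF5A2 at 0.55 ± 0.11 followed. EIF2B4 was recovered at -1.76, -1.84 and -1.55 with UPF1-1 and -0.83, -1.40 and -0.77 with UPF1-2 (difference -0.71 ± 0.18, adjusted p = 0.046), and EIF3CL at -0.77, -1.14 and -0.97 and 0.13, -0.57 and -0.22 (difference -0.74 ± 0.18, adjusted p = 0.041). The other 6 differences lay between -0.53 (EIF3B) and -0.43 (EEF1B2). For all 12 members the 3 recoveries with UPF1-1 did not overlap the 3 with UPF1-2. These are the values that gave the calls, and a share over all genes is not given, so this adds no further support. EIF5A showed a mean of similar size, -0.64 ± 0.22, and did not pass (adjusted p = 0.099), as did EIF1AX at 0.50 ± 0.14 (adjusted p = 0.059).

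The calls of this comparison depended on the fit. Without the block 0 members and 0 genes in all passed, with 7 members at an unadjusted p under 0.05. Without replicate 1 or without replicate 2, 0 members and 0 genes in all passed. Without replicate 3, 9 members were lower and 0 higher, and among all genes 581 were lower and 523 higher. The split also moved with scaling: with upper quartiles set equal 8 members were lower and 2 higher, and among all genes 459 were lower and 846 higher, against 750 lower and 530 higher with medians set equal.

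**Figure D4:**
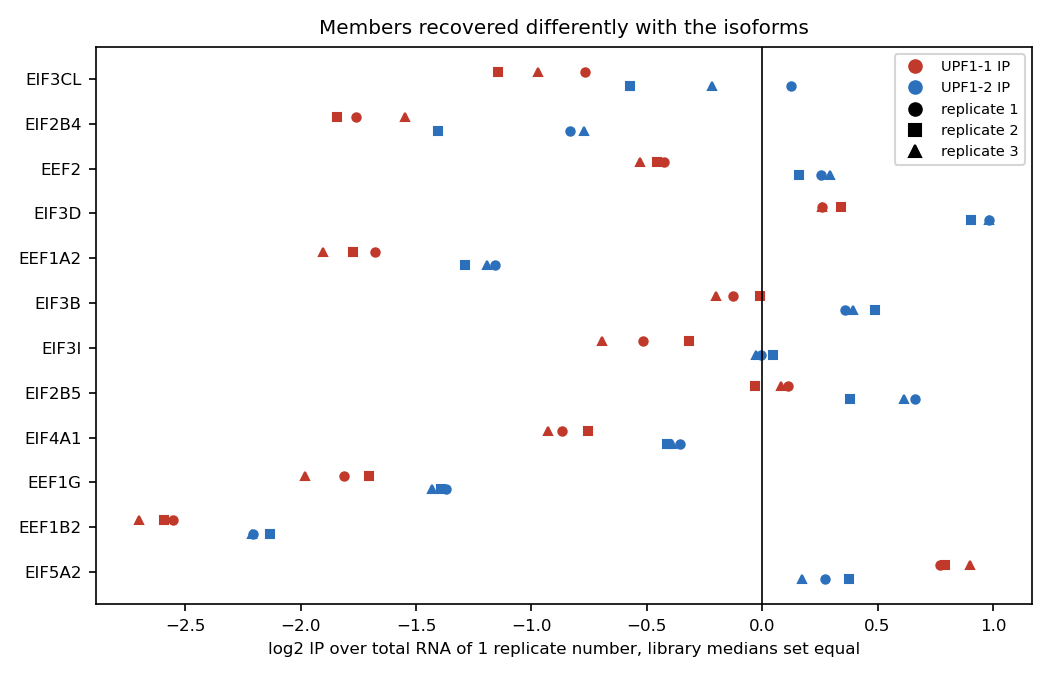
Recovery within each replicate number, as log2 IP over total RNA with library medians set equal, for the 12 members whose recovery differed between UPF1-1 and UPF1-2. Symbols give the replicate number. The UPF1-1 values lie left of the UPF1-2 values for all rows but EIF5A2, and for EEF2 they lie on opposite sides of 0.

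Other genes of the pathway were read from lists of partners and regulators with 50 symbols. In UPF1-1 against GFP total RNA 1 of 47 tested rose and 5 fell, against 8.38% and 7.79% of all genes. DPH1, an enzyme of the diphthamide modification of EEF2, rose by 0.25 ± 0.07, and its pathway partners DPH3 and DPH7 had -0.33 ± 0.08 and -0.30 ± 0.08. The poly(A)-binding proteins PABPC4 and PABPC1 had -0.36 ± 0.08 and -0.32 ± 0.09, and the RNA-binding protein LARP4 -0.41 ± 0.10, all lower (adjusted p between 0.02 and 0.042). In UPF1-2 against GFP total RNA 0 of 47 passed, against 0.375% of all genes, and in UPF1-1 against UPF1-2 total RNA 2 were higher and 2 lower, against 5.49% and 4.02%. In the IPs 17 of 49 tested were above the median shift and 18 below with UPF1-1, against 30.8% and 43.9% of all genes, and 17 and 16 with UPF1-2, against 31.5% and 44.2%. Among the recycling factors the partners DENR and MCTS1 lay on opposite sides, at 1.37 ± 0.09 and -1.62 ± 0.08 with UPF1-1 and 1.27 ± 0.09 and -1.33 ± 0.08 with UPF1-2. ABCE1, which splits ribosomes after termination, had 1.33 ± 0.09 and 1.26 ± 0.09. The poly(A)-binding protein regulators PAIP2 and PAIP1 also went opposite ways, at 1.21 ± 0.11 and -1.08 ± 0.08 with UPF1-1. MKNK1, a kinase of EIF4E, was lowest at -3.04 ± 0.28 and -3.01 ± 0.28, and DHPS, which makes the hypusine of EIF5A, had -1.68 ± 0.07 and -1.28 ± 0.07. In the test of the isoforms 1 of 49 was recovered more and 5 less with UPF1-1, against 4.43% and 6.27% of all genes, and the lower ones included the mitochondrial elongation factors TUFM (-0.47 ± 0.10) and TSFM (-0.45 ± 0.10). No row matched the 5 symbols listed for elongation factor methyltransferases.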

How the data were processed

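TPM per library were deposited by the authors for 12261 genes with 1 Ensembl transcript each. Cutadapt, kallisto, sleuth and the build hg19 are named in the submitters' processing notes, and their versions are not given in the sources used here. The authors also deposited, per the file headers, the ratio of IP to total TPM per replicate number, and q-values from sleuth for the total RNA comparisons. The deposited ratios equalled those recomputed in 100% of entries within 1e-06. The lowest mean of a gene in any total RNA group was 0.25 TPM, so genes below that were not analysed here. TPM keep no depth, so no counting interval is given.

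TPM plus a pseudocount of 0.5 were log2 transformed, library medians were set equal, and genes reaching 1 TPM in 3 or more of the libraries of a fit were kept. The test was limma-trend (limma 3.58.1, R 4.3.3), in total RNA with the replicate number as a block (9 libraries, 9325 genes) and for recovery with each combination of isoform and replicate number as a block (12 libraries, 11969 genes). Tests were 2-sided, and p-values were adjusted over all genes by Benjamini-Hochberg, with a threshold of 0.05. The fit was tested on simulated data. Alternatives left out the block, the equal medians, the filter or a replicate, or used upper quartiles or other pseudocounts. With group means removed, the correlation between same-numbered libraries was 0.70 to 0.95 in total RNA (9 pairs) and 0.57 to 0.91 in the IP fit (18 pairs). The authors' ratios also pair IP with total RNA by number, and numbers were treated as pairs. Symbols are those of the table, and first bases and biotypes are from RefSeq GRCh38.p14.

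Values in every library were given by rule for EEF1A1, EEF2, EIF4G1, EIF4E, EIF4A1, EIF2S1 and EIF5A and for up to 5 called members with the highest and 5 with the lowest difference per comparison, of which only the leading ones are printed in full for the IPs. UPF1, the 5 genes most like EEF1A1 and up to 3 genes per pathway list were also named. The members, the lists and the fit were chosen with earlier results of these data known.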

Additional observations from a re-analysis of the deposited data

Results flagged for a closer look

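A difference in recovery between UPF1-1 and UPF1-2 that passed the test of the difference itself (limma interaction term, Benjamini-Hochberg adjusted over all genes) marked 12 members. On the log2 scale, UPF1-1 minus UPF1-2, the differences were -0.74 for EIF3CL, -0.71 for EIF2B4, -0.71 for EEF2, -0.67 for EIF3D, -0.57 for EEF1A2, -0.53 for EIF3B, -0.51 for EIF3I, -0.50 for EIF2B5, -0.46 for EIF4A1, -0.43 for EEF1G, -0.43 for EEF1B2 and 0.55 for EIF5A2. EIF3CL shares most of its sequence with EIF3C, whose own difference was -1.30 ± 0.42 (adjusted p = 0.084), and with their TPM added together the difference was -0.84 (adjusted p = 0.019). Line and isoform cannot be told apart in these differences.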

How the results depend on the processing

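Counts of higher and lower without equal medians are taken against 0. A change of direction in that setting is judged against the median of all genes. Among members, UPF1-1 against GFP total RNA gave 6 higher and 7 lower as reported. It gave 0 and 0 without the replicate block, 3 and 0 with the block and no equal medians, and 0 and 0 with neither. Among all genes these settings gave 11 and 5, 266 and 35, and 1 and 1. With upper quartiles set equal 13 were lower, and the lower genes in all went from 726 to 976. Leaving out a replicate gave 2 to 5 higher and 1 to 8 lower. UPF1-2 against GFP gave 0 to 1 higher with a replicate left out. UPF1-1 against UPF1-2 total RNA gave 4 higher and 4 lower as reported, 0 and 0 without the block, 0 and 0 with the block and no equal medians, and 0 and 0 with neither. It gave 1 lower without the filter on low values, and 0 to 3 higher and 0 to 2 lower when a replicate was left out. Among all genes, the block with no equal medians gave 74 higher and 15 lower, and leaving out the filter 578 and 289. With no equal medians, where the median difference over all genes was 2.40 in UPF1-1 IP and 2.38 in UPF1-2 IP, 58 members were higher and 0 lower with UPF1-1 (55 and 0 without the block as well) and 60 and 0 with UPF1-2 (58 and 0). Of 11969 genes in all, 11464 were then higher and 150 lower with UPF1-1, with the block kept (10953 and 101 without). With UPF1-2 these counts were 11485 and 128 (11030 and 93). Without the block, medians set equal, UPF1-2 recovery counted 12 higher and 21 lower. Without equal medians EIF3B stood at 2.45 with UPF1-1 with or without the block, just above the all-gene median of 2.40. EIF3I with UPF1-2 moved from 0.00 to -0.22 and passed with a pseudocount of 0.1. The difference in recovery (1 higher and 11 lower) gave 0 and 0 without the block, 0 and 0 with the block and no equal medians, and 0 and 0 with neither. It gave 2 higher with upper quartiles set equal, 2 higher with a pseudocount of 0.1 and 5 lower with a pseudocount of 1. With a replicate left out it gave 0 higher and 0 to 9 lower. Among all genes 606 were higher with a pseudocount of 0.1 and 495 lower with a pseudocount of 1, against 530 and 750 as reported. With copies added, chosen after seeing the data, EIF3C passed in that comparison and the other results for the 5 genes with copies kept their call. In UPF1-1 against UPF1-2 total RNA, where neither passed, EIF3C turned to -0.03, against 0.26 as reported, and EEF1A1 to 0.06, against -0.01. The cause of these changes was not tested. Replicates 1 and 2 resembled each other across groups nearly as well as libraries with the same number did. Reads behind low TPM are unknown, which limits what can be said of the 5 members under 1 TPM.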
